A study of Brassica napus with 27 samples.

Results

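Leaves of a Brassica napus line edited in 1 FAH gene were compared with wild-type leaves 1 day after transfer from long to short days. The comparison held 6 of the 27 RNA-seq libraries of the study, 3 of wild type and 3 of the edited line, chosen by the genotype and stage in their labels. Of 30 WRKY factors tested at this stage, 6 were lower in the edited line, beside 2.24% of all tested genes. They were both WRKY53 genes, both WRKY70 genes, WRKY40-1 and WRKY33-1. Of these 6, only the WRKY70 genes passed under all 16 alternative settings tried. The transcription factor genes MYB44 and HsfA4a were lower as well. Of all 2208 genes that differed, 957 lay in stretches of chromosomes A8, C8 and A9, where neighbouring genes were shifted together at every stage sampled, and 1251 lay outside them.

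The wild type is labelled WT, and its columns carry the name westar, a spring oilseed rape cultivar. The edited line, called the single line here, is labelled bnaa06fah and carries a mutation in BnaA06FAH made with CRISPR/Cas9. It is described as free of the transgene, and its columns name 1 line, so the comparison is between 1 mutant line and wild type. A second line, bnafah, is mutant in both BnaA06FAH and BnaC05FAH and is called the double line. The labels call these lines knock-downs and the series' description calls them null mutants, and the FAH genes are not analysed here, so the genotypes were not checked through them. Seedlings grew for 5 days on medium and then for 2 weeks in soil under long days before the transfer. Leaves were taken in long days (LD) and 1 and 2 days after the transfer to short days (SD1 and SD2). The labels, however, print 16 h of light and 8 h of dark for both conditions. Whether replicates are separate plants is not stated, and the p-values therefore rest on a spread between libraries that could be technical.

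FAH, fumarylacetoacetate hydrolase, is the last enzyme of tyrosine degradation, and in Arabidopsis its loss leads to cell death under short days. The study asks what accompanies that cell death. WRKY proteins are plant transcription factors that bind the promoters of defence and senescence genes, and many of them are induced within hours of wounding, pathogens or oxidative stress, downstream of mitogen-activated protein kinases. Brassica napus is an allotetraploid with an A and a C genome, and most genes have a closely related copy in the other genome, so reads of near-identical copies may be shared between them in these counts.

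Total counts of the 6 libraries ran from 50971185 to 54982430. Normalised expression is given as CPM, a gene's count set against its library's TMM-scaled total, in the usual unit. Log2 CPM correlated at 0.963 to 0.981 within the 2 groups and at 0.918 to 0.949 between them. A principal component analysis took only the 5000 most variable genes. Its first component, with 70.9% of their variance, placed the wild-type libraries between 61.6 and 72.3 and the single-line libraries between -70.4 and -65.5. The second, with 12.1%, did not part the groups. Testing covered 72039 genes, of which 473 are named and 415 of these are nuclear. No named gene of the light-harvesting or nuclear photosystem list was among them, so the leaf label could not be checked through those genes. The vascular, epidermis, flower and seed lists held 9 named genes, and edgeR called 0 of them, with 0 at an unadjusted p under 0.05 and 0 called by DESeq2 or by limma on FPKM.

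Between the single line and wild type at SD1, 2208 genes passed an edgeR adjusted p of 0.05, which is 3.07% of those tested. Of these, 593 (0.823%) were higher and 1615 (2.24%) were lower in the single line. Genes that passed this threshold are described as called. Without adjustment 8122 genes (11.3%) had a p under 0.05. The 3 and 3 libraries did not overlap in 18.8% of all tested genes, 10.3% with the single line lower and 8.45% with it higher. Among called genes with a biotype in the reference table, 1611 were protein coding (3.10% of those tested), 97 were long non-coding RNAs (3.75%) and 69 were pseudogenes (3.08%).

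Placed in the gene order of the Da-Ae reference genome, the called genes were uneven along the chromosomes. Chromosome C8 had 750 of 3118 tested genes called (24.1%), A8 had 252 of 2115 (11.9%) and A9 had 136 of 3837 (3.54%). On C7 the share was 2.92%, and on the other 15 chromosomes it lay between 0.757% and 1.59%. Stretches were delimited from the long-day fold changes, as runs of genes whose median log2 fold change over 41 neighbours lay beyond 0.6, and were then read at SD1. There were 6 such runs, 2 on each of A8, C8 and A9, with 1669 tested genes.

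**Figure D1:**
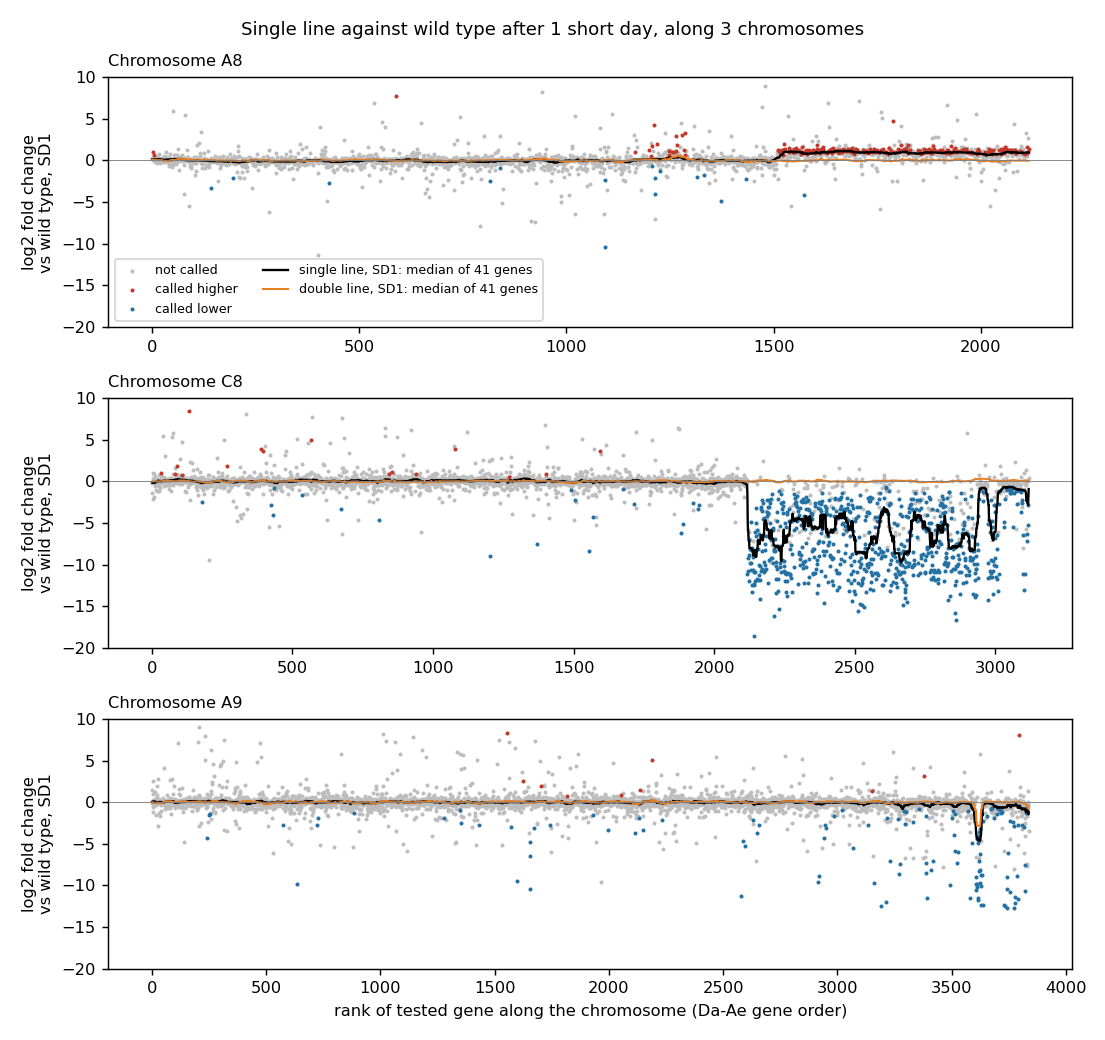
Log2 fold change at SD1 of each tested gene (points) on chromosomes A8, C8 and A9, against its rank in the Da-Ae gene order. Lines are medians over 41 genes for the single line (black) and the double line (orange), each against wild type. At one end of A8 the black line lies near 1. Towards one end of C8 it lies far below 0, and nearer to 0 in the last run, while the orange line stays near 0.

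On C8 the stretch covered 985 tested genes. Of these, 711 (72.2%) were lower in the single line at SD1, 0 were higher by edgeR, DESeq2 or limma on FPKM, and 1 was higher at an unadjusted p under 0.05. The median log2 fold change was -5.70, with quartiles at -9.54 and -2.30. The 2 runs of the stretch differed. In the first, with 832 genes, the median was -6.29, and sums were 11576, 10663 and 10599 CPM in wild type and 992, 1086 and 995 CPM in the single line. In the other, with 153 genes and last in the gene order, it was -1.06, with 4520, 4107 and 4107 CPM against 1907, 1893 and 1626 CPM. Summed over the stretch, the wild-type libraries held 16096, 14769 and 14705 CPM, and the single-line libraries held 2900, 2979 and 2620 CPM. All 3 single-line sums thus lay far below all 3 of wild type, while the double line held 15146 ± 1860 CPM (mean ± SD, n = 3). Of the 418 genes of the stretch with at least 5 CPM in wild type, 249 stood below 0.1 of the wild-type mean and 119 had no count in any single-line library.

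The stretch on A8 moved the other way and by less. Of its 604 tested genes, 216 (35.8%) were higher and 1 was lower, with a median log2 fold change of 0.95 and quartiles at 0.64 and 1.21. The wild-type libraries summed to 11832, 10062 and 11657 CPM and the single-line libraries to 19543, 22043 and 21541 CPM. The groups did not overlap, and the double line held 11223 ± 798 CPM. On A9 the 2 runs were short, with 80 tested genes. Of these, 29 were lower by edgeR, 33 by DESeq2 and 32 by limma on FPKM. By all 3 tools 0 were higher, with 1 higher at an unadjusted p under 0.05. The sums over both runs were 536, 492 and 490 CPM in wild type and 223, 208 and 192 CPM in the single line. The double line stood between them at 344 ± 33.7 CPM. In the first of the A9 runs the median was -4.37 in the single line and -2.46 in the double line, so the median stood below 0 in both lines.

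In all, 957 of the 1669 genes in the stretches were called (57.3%), and 1251 of the 70370 genes outside them were called (1.78%), 377 higher and 874 lower. The genes outside include 16597 that have no place in the gene order, of which 454 were called (2.74%).

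Some genes had no count at all in one of the groups. There were 166 genes with at least 5 CPM in wild type and 0 counts in all 3 single-line libraries, of which 119 lay in the C8 stretch and 22 had no place. A count of 3 per library corresponded to 0.0552 CPM, which is taken as the limit that a count of 0 allows, for counting error only. At the other stages, 141 of the 166 also had no count in the single line in LD and 139 had none at SD2. In the double line at SD1 only 10 had no count, and 148 stood at 5 CPM or more. The most abundant was LOC106414826 on C8, with 910, 835 and 927 CPM in wild type and 0 in each single-line library, at least 16151-fold lower. Its level in the single line was 2.20 CPM in LD and 1.19 CPM at SD2, so it was not at 0 throughout. LOC106415143, also in the C8 stretch, had 266, 240 and 187 CPM in wild type and 0 in the single line, at least 4187-fold lower.

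The reverse pattern was rarer. There were 17 genes with 0 counts in wild type and at least 5 CPM in the single line, none of them in the stretches, and 6 of them long non-coding RNAs. The highest was LOC106361911, a long non-coding RNA on C3, with 27.3, 25.1 and 28.3 CPM in the single line, at least 494-fold higher than in wild type. It stood at 26.8 CPM in the double line. LOC106369974, which has no place in the gene order, had 14.6, 18.9 and 19.6 CPM in the single line, at least 325-fold higher, and 22.2 CPM in the double line. The double line had 5 CPM or more for 9 of the 17.

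Of the 473 named genes, 19 were called, which is 4.02% beside 3.07% of all tested genes. In the single line 17 of them were lower and 2 were higher, and 5 of the 19 lay in the stretches. All 19 had groups of 3 libraries that did not overlap, as had 18.8% of all tested genes. They were called on these same libraries, so the lack of overlap is no added evidence.

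**Figure D2:**
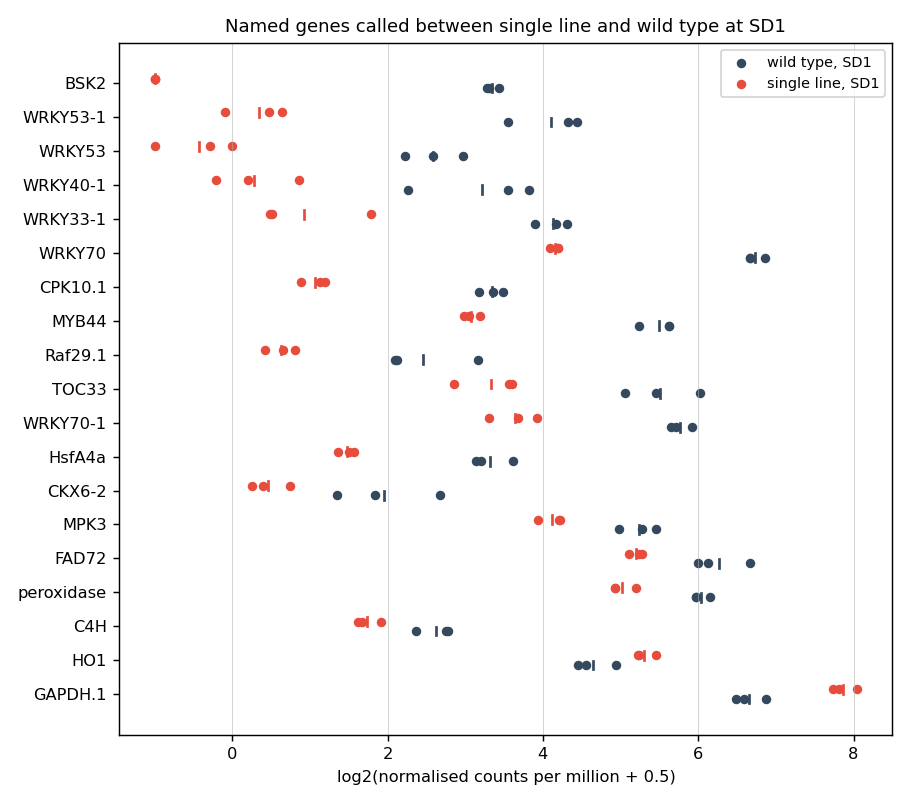
Level of the 19 called named genes at SD1 in each wild-type library (dark) and each single-line library (red), as log2 of CPM plus 0.5. Short bars mark the means of 3 libraries. The genes were called on these same libraries, so the 2 separate groups of points are no added evidence. In 17 of 19 genes the single line is on the left.

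The 5 named genes in the stretches serve unrelated functions. BSK2 (LOC106416337), a kinase that carries the brassinosteroid signal from its receptor, had 9.18, 10.3 and 9.42 CPM in wild type. It had 0 counts in all 3 single-line libraries, at least 175-fold lower (edgeR adjusted p = 1.44e-12), and also 0 in the single line in LD and at SD2. Wild-type and double-line levels of BSK2 were close, at 9.63 ± 0.586 and 9.67 CPM. TOC33 (LOC106377345), a GTPase receptor that admits proteins into chloroplasts, had 64.3, 32.7 and 43.5 CPM in wild type. In the single line it had 11.3, 11.7 and 6.71 CPM, a log2 fold change of -2.24 ± 0.30 (SE, adjusted p = 1.85e-05). CPK10.1 (LOC106368892), a calcium-dependent protein kinase, fell from 10.7, 9.80 and 8.57 CPM to 1.35, 1.79 and 1.69 CPM (log2 -2.59 ± 0.33, adjusted p = 7.68e-06). CKX6-2 (LOC106415860), a cytokinin oxidase that breaks down the hormone, had 3.07, 5.87 and 2.05 CPM in wild type and 0.815, 0.693 and 1.17 CPM in the single line (log2 -2.04 ± 0.50, adjusted p = 0.0203). These 4 genes lie in the C8 stretch. Of them, CKX6-2 lost its call without wild-type replicate 2 or single-line replicates 1 or 2. Its call was also lost with a replicate block in the 6 libraries alone and with limma on FPKM plus 1 (adjusted p up to 0.188 over these settings). GAPDH.1 (LOC106382350), a glyceraldehyde-3-phosphate dehydrogenase of glycolysis, lies in the A8 stretch and rose from 117, 96.1 and 89.5 CPM to 224, 214 and 264 CPM (log2 1.21 ± 0.18, adjusted p = 6.44e-05).

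The largest called changes of named genes outside the stretches were in WRKY factors. WRKY53, which promotes leaf senescence in Arabidopsis, is present as WRKY53-1 (LOC106441470) on C1 and WRKY53 (LOC106375988) on A1. WRKY53-1 had 19.6, 21.2 and 11.2 CPM in wild type and 0.885, 0.438 and 1.06 CPM in the single line (log2 -4.45 ± 1.05, edgeR adjusted p = 0.0151). WRKY53 had 7.32, 5.49 and 4.16 CPM in wild type and 0.319, 0 and 0.4998 CPM in the single line (log2 -4.37 ± 1.02, adjusted p = 0.0146). Each wild-type library thus held several times the level of any single-line library for both copies. The double-line libraries were scattered, from 2.15 to 30.5 CPM for WRKY53-1 and from 0.537 to 11.3 CPM for WRKY53 and reached into the wild-type range. In bulk leaves, fewer cells expressing a gene and less RNA of it per cell cannot be told apart.

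WRKY40-1 (LOC106430771), the counterpart of an Arabidopsis factor induced early by pathogens and abscisic acid, had 13.6, 11.2 and 4.29 CPM in wild type. In the single line it had 0.655, 0.365 and 1.31 CPM (log2 -3.65 ± 0.88, adjusted p = 0.0188). A second gene of that name, WRKY40 (LOC106381555) on C2, stood at -2.74 and did not pass (adjusted p = 0.139). WRKY33-1 (LOC106410925), named for an Arabidopsis regulator of defence against necrotrophic fungi, had 17.5, 19.3 and 14.4 CPM in wild type and 0.903, 0.930 and 2.94 CPM in the single line (log2 -3.43 ± 0.92, adjusted p = 0.0411). Its adjusted p rose above 0.05 whichever of the 6 libraries was left out. It also did so without the filter on low counts and with a replicate block in all libraries (up to 0.206 over these settings). That of WRKY40-1 did so without replicates 1 or 2 of either group and with the block in the 6 libraries alone (up to 0.128). The calls of the WRKY53 genes were lost without single-line replicates 1 or 2, and that of WRKY53-1 also without replicate 3 (adjusted p up to 0.105). That of WRKY53 on A1 was also lost with the block in the 6 libraries alone.

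WRKY70 links salicylate signalling to senescence and defence in Arabidopsis. WRKY70 (LOC106367975), on C8 but outside the shifted stretch, had 102, 116 and 101 CPM in wild type and 17.9, 17.9 and 16.5 CPM in the single line (log2 -2.61 ± 0.43, adjusted p = 0.00029). WRKY70-1 (LOC106368083), on A9, had 52.2, 59.8 and 49.8 CPM in wild type and 14.6, 12.3 and 9.42 CPM in the single line (log2 -2.15 ± 0.40, adjusted p = 0.00144). The spread within each group was small beside the gap between groups. NPR1 (LOC106376076), the salicylate co-receptor that acts above WRKY70, had 15.4, 18.1 and 15.9 CPM in wild type and 12.9, 13.7 and 18.2 CPM in the single line, and the groups overlapped (log2 -0.14 ± 0.18, adjusted p = 0.876). Both WRKY70 genes were also called in the double line at SD1, at 29.8 and 14.9 CPM (adjusted p = 0.0403 and 0.0266).

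MYB44 (LOC106358308), a transcription factor of abscisic acid and stress responses in Arabidopsis, had 37.2, 48.7 and 48.9 CPM in wild type. In the single line it had 7.38, 8.66 and 7.77 CPM (log2 -2.50 ± 0.51, adjusted p = 0.0038). MYB77.1 (LOC106390878), a relative of MYB44, had 20.9, 31.9 and 23.2 CPM against 7.03, 10.9 and 12.02 CPM. Its groups did not overlap either, but it did not pass (log2 -1.35 ± 0.47, adjusted p = 0.176). HsfA4a (LOC106440325), a heat shock factor linked to oxidative stress, had 11.8, 8.27 and 8.70 CPM in wild type and 2.34, 2.06 and 2.46 CPM in the single line (log2 -2.07 ± 0.42, adjusted p = 0.00315). The calls of WRKY70, WRKY70-1, MYB44 and HsfA4a held under all 16 alternative settings tried.

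Of the kinases, MPK3 and Raf29.1 were called. MPK3 (LOC106405163), a mitogen-activated protein kinase of early immune signalling that acts on WRKY33 in Arabidopsis, had 31.2, 43.6 and 38.1 CPM in wild type and 17.9, 14.8 and 18.1 CPM in the single line (log2 -1.15 ± 0.31, adjusted p = 0.0409). A second copy, MPK3.1 (LOC106347512), had 27.3, 44.2 and 36.2 CPM against 17.8, 15.7 and 19.4 CPM and did not pass (log2 -1.02 ± 0.31, adjusted p = 0.0914). Raf29.1 (LOC106361286), a Raf-like kinase on A8 outside the shifted stretch, had 3.77, 3.84 and 8.43 CPM in wild type and 1.08, 0.839 and 1.25 CPM in the single line (log2 -2.34 ± 0.60, adjusted p = 0.0302). Its wild-type mean was raised by replicate 3, without which it did not pass, and it was also lost without any 1 of the single-line libraries (adjusted p up to 0.183). MPK3 lost its call without any library but wild-type replicate 1. Its call was also lost with a replicate block in all libraries. On FPKM plus 0.1 and plus 1, limma did not call MPK3 either (adjusted p up to 0.191 over these settings).

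Smaller changes were called in 4 metabolic genes. A peroxidase gene (LOC106444911), of the class of enzymes that use hydrogen peroxide as oxidant, fell from 70.7, 62.4 and 62.1 CPM to 29.9, 36.4 and 30.0 CPM (log2 -1.02 ± 0.24, adjusted p = 0.0153). FAD72 (LOC106452545), named as a fatty acid desaturase, had 101, 63.6 and 69.4 CPM in wild type and 38.2, 33.9 and 37.2 CPM in the single line (log2 -1.10 ± 0.30, adjusted p = 0.0474). C4H (LOC106348398), the cinnamate hydroxylase of phenylpropanoid synthesis, had 6.23, 6.34 and 4.65 CPM against 2.57, 3.26 and 2.67 CPM (log2 -1.02 ± 0.28, adjusted p = 0.0433). HO1 (LOC106358404), a heme oxygenase of phytochrome chromophore synthesis, was the 1 named gene higher outside the stretches, with 22.9, 21.4 and 30.3 CPM against 37.4, 36.7 and 43.3 CPM (log2 0.65 ± 0.17, adjusted p = 0.0331). None of these 4 calls held without each library in turn. FAD72 was lost whichever was left out and without the filter on low counts. So it was with a replicate block in all libraries and with TMM scaling from genes outside the stretches (adjusted p up to 0.306). C4H was lost without any but wild-type replicate 3, with either replicate block and with limma on both FPKM scales (up to 0.179). HO1 was lost without any but wild-type replicate 3, in the 6 libraries alone and with the block in them (up to 0.211). The peroxidase was lost without wild-type replicate 1 or single-line replicates 1 or 3 (up to 0.0874).

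Seen by family, the decrease was concentrated in a few members. Of 30 WRKY factors tested, 6 were lower and 0 were higher by edgeR, with a median log2 fold change of -0.21 beside -0.01 for all tested genes. Over all tested genes 2.24% were lower and 0.823% higher, against which this and the following counts are to be read. DESeq2 called 8 lower and 1 higher, limma on FPKM called 6 and 0, and 9 were lower and 4 higher at an unadjusted p under 0.05. The libraries did not overlap for 10 lower and 3 higher members, beside 10.3% and 8.45% of all tested genes. Summed over the family, wild-type libraries held 304, 349 and 283 CPM and single-line libraries 109, 110.3 and 131 CPM. These sums include the 6 called genes, so they do not show a decrease across the family. WRKY70 alone held 102, 116 and 101 CPM in wild type and 17.9, 17.9 and 16.5 CPM in the single line. WRKY28-1 (LOC106440191) was the closest to a call in the other direction, from 0.274 to 1.75 CPM on average (log2 2.67, adjusted p = 0.06). The senescence list held 3 genes, the 2 WRKY53 genes and NAC29.1, which stood at -0.66 (adjusted p = 0.89), and the salicylate list held WRKY70, WRKY70-1 and NPR1. Of 33 kinases of mitogen-activated cascades 2 were lower and 0 higher, with a median of -0.08. In that list DESeq2 called 3 lower and 1 higher, and 4 were lower and 3 higher at an unadjusted p under 0.05. Of 14 MYB factors 1 was lower, with a median of -0.09.

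**Figure D3:**
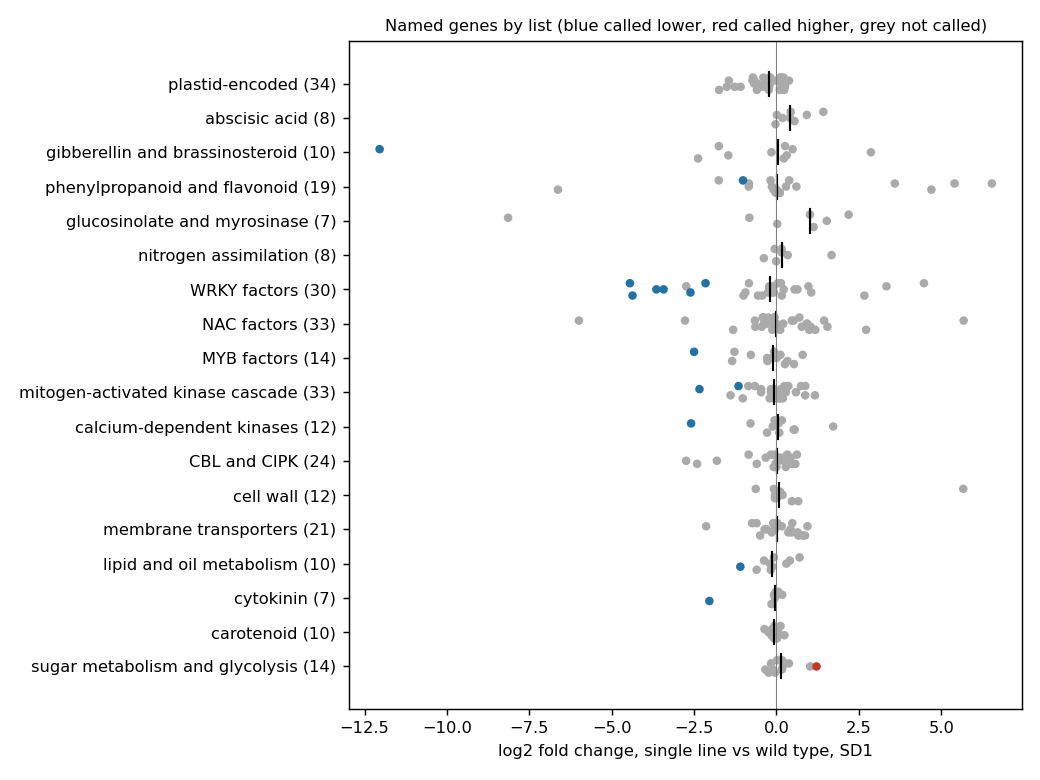
Log2 fold change at SD1 of the named genes of each list with at least 7 tested members (number tested in brackets). Each point is a gene, blue where called lower, red where called higher and grey where not called, and black bars are medians. The called WRKY factors lie between -4.45 and -2.15 while the median of the family is -0.21.

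Other families had few or no calls. Of 33 NAC factors, which include senescence regulators, 0 were called by edgeR, DESeq2 or limma on FPKM, with 3 higher and 3 lower at an unadjusted p under 0.05 and a median of -0.01. The 24 CBL and CIPK genes of calcium signalling also had 0 calls by the 3 tools, with 1 at an unadjusted p under 0.05, and the 12 calcium-dependent kinases had 1, CPK10.1 in the C8 stretch. The 21 membrane transporters had 0 calls by the 3 tools and 4 higher at an unadjusted p under 0.05, and the 12 cell wall genes and 10 carotenoid genes had 0 by each measure. Among 19 phenylpropanoid and flavonoid genes C4H was the 1 call by edgeR. DESeq2 called 1 higher and 1 lower in that list, limma on FPKM called 0, and at an unadjusted p under 0.05 there were 1 higher and 3 lower. PAL-BN-1 (LOC106391500), for the entry enzyme phenylalanine ammonia-lyase, stood at -0.84 (adjusted p = 0.246). Of 8 nitrogen assimilation genes 0 were called by edgeR and limma, 1 was called higher by DESeq2, and 1 had an unadjusted p under 0.05. The nitrate reductase NIA2 (LOC106368948) had 1.31, 1.43 and 0.936 CPM in wild type and 4.71, 2.46 and 4.56 CPM in the single line, without overlap (log2 1.67 ± 0.54, adjusted p = 0.133).

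Of 8 abscisic acid genes 0 were called by the 3 tools and 2 were higher at an unadjusted p under 0.05, with a median of 0.42. The glucosinolate and myrosinase list had 7 genes, a median of 1.02 and 0 calls by edgeR and limma, with 1 called lower by DESeq2 and 3 higher at an unadjusted p under 0.05. In it ESP (LOC106348445), which directs glucosinolate breakdown to nitriles, had 52.7, 146 and 39.4 CPM in wild type and 473, 238 and 373 CPM in the single line (log2 2.19 ± 0.91, adjusted p = 0.323). Of genes tied to cell death and its setting, BI-1 (LOC106381875), a Bax inhibitor that restrains cell death, had a log2 fold change of 0.07 (adjusted p = 0.973), catalase (LOC106358221) at 0.15 (0.936) and the tocopherol enzyme gene VTE4-750 (LOC106406285), which works downstream of an intermediate of tyrosine degradation, at 0.09 (0.94). The 3 ER chaperone genes had a median of 0.65 and 0 calls by the 3 tools. Of them, 2 were higher without overlap, beside 8.45% of all tested genes. Among the 3, BiP (LOC106345946) and Crt1 (LOC106415836) stood at -0.16 and 0.81 (adjusted p = 0.967 and 0.567). The 34 plastid-encoded genes had a median of -0.22, with 0 called by the 3 tools and 2 lower at an unadjusted p under 0.05.

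The other lists had at most 1 call each by edgeR. Of 14 sugar metabolism genes 1 was higher, GAPDH.1, and of 7 cytokinin genes 1 was lower, CKX6-2. TOC33 was the 1 lower of 3 plastid protein import genes, and BSK2 the 1 lower of 10 gibberellin and brassinosteroid genes. FAD72 was the 1 lower of 10 lipid genes, and HsfA4a the 1 lower of 2 heat shock genes. The 6 cold and dehydration genes had 0 calls by the 3 tools and 1 lower at an unadjusted p under 0.05, CBF7 (LOC106436550), a cold-response activator, at a log2 fold change of -2.11 (adjusted p = 0.202). The 4 ethylene genes and the 4 clock, photoperiod and photoreceptor genes, which include cry1 and cry2, had 0 by each measure. So did AOC3.1 of jasmonate synthesis and the ribosomal protein gene RPS6.

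The same lines were compared in LD and at SD2, which share no library with SD1. In LD 2144 genes were called (2.98%), 765 higher (1.06%) and 1379 lower (1.91%). At SD2 1845 were called (2.56%), 492 higher (0.683%) and 1353 lower (1.88%). Of the SD1 calls, 1422 were also called in LD, 64.4% of the SD1 list and 66.3% of the LD list, and 1371 at SD2, 62.1% and 74.3%. Every shared call had the same direction. In the stretches, 90.2% of the SD1 calls were also made in LD and 89.0% at SD2. Outside them the shares were 44.7% and 41.5%. The median log2 fold change of the genes lower in the stretches was -8.08 at SD1, -7.70 in LD and -7.85 at SD2. For the 874 genes lower outside the stretches it was -2.93 at SD1, -1.53 in LD and -1.06 at SD2. As these genes were chosen for their values at SD1, larger values there follow from the choice and are given as a description.

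**Figure D4:**
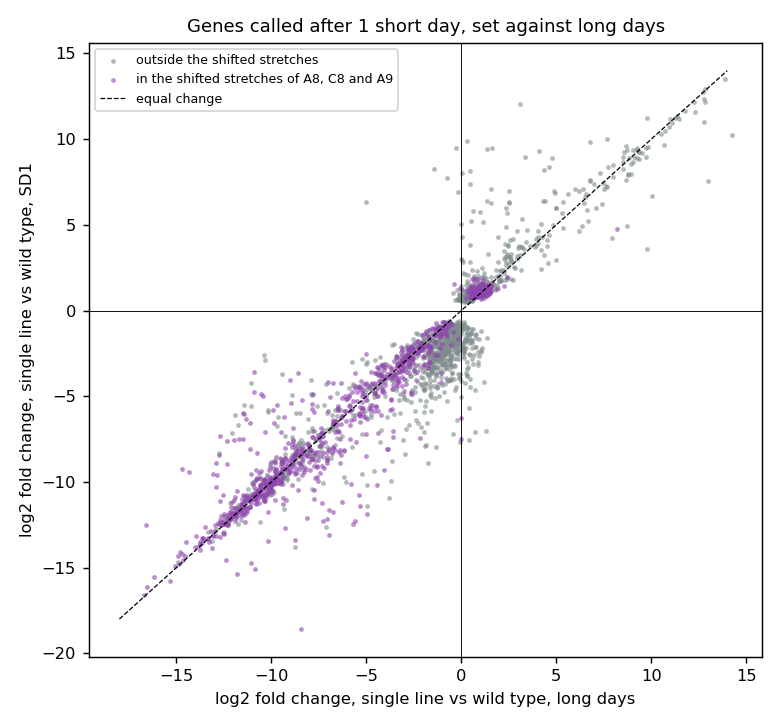
Log2 fold change of single line against wild type at SD1 (vertical) and in LD (horizontal) for the 2208 genes called at SD1. Purple points lie in the stretches of A8, C8 and A9, grey points outside, and the dashed line marks equal change. Purple points follow the line, and many grey points below 0 lie nearer to 0 in LD, with medians of -2.93 and -1.53.

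The levels behind this pattern differed between genotypes. In wild type, 540 of the 874 genes (61.8%) had their highest stage mean at SD1, beside 26.3% of all tested genes and 25.5% of the 741 genes lower in the stretches. In the single line 448 of them (51.3%) had their lowest stage mean at SD1, beside 23.4% of all tested genes. The median level of the 874 genes was 3.92, 6.26 and 4.05 CPM in wild type in LD, at SD1 and at SD2, and 1.16, 0.783 and 1.68 CPM in the single line. The choice of genes used the SD1 libraries, so no test is given.

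The 13 named genes lower outside the stretches are among these 874 and were chosen in the same way, so their stage means are also a description. Of them, 12 had their highest wild-type mean at SD1 and 9 had their lowest single-line mean there. WRKY53-1 stood at 4.44, 17.3 and 1.57 CPM in wild type in LD, at SD1 and at SD2, and at 1.81, 0.793 and 15.8 CPM in the single line. WRKY53 stood at 1.70, 5.66 and 0.462 CPM in wild type and 0.850, 0.273 and 5.59 CPM in the single line. At SD2 the single-line mean was thus the higher for both. The difference did not pass with edgeR (adjusted p = 0.0871 and 0.0506), while DESeq2 called both and limma on FPKM called 1. The single-line libraries at SD2 were spread, at 15.5, 26.8 and 5.09 CPM for WRKY53-1 and 6.33, 8.78 and 1.66 CPM for WRKY53. WRKY40-1 stood at 1.91, 9.71 and 3.66 CPM in wild type and 0.772, 0.776 and 10.5 CPM in the single line, and WRKY33-1 at 4.90, 17.1 and 5.16 CPM and 2.25, 1.59 and 12.5 CPM. For WRKY70 the single line stayed below wild type, with 62.3, 106 and 42.4 CPM in wild type and 24.6, 17.4 and 24.8 CPM in the single line.

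**Figure D5:**
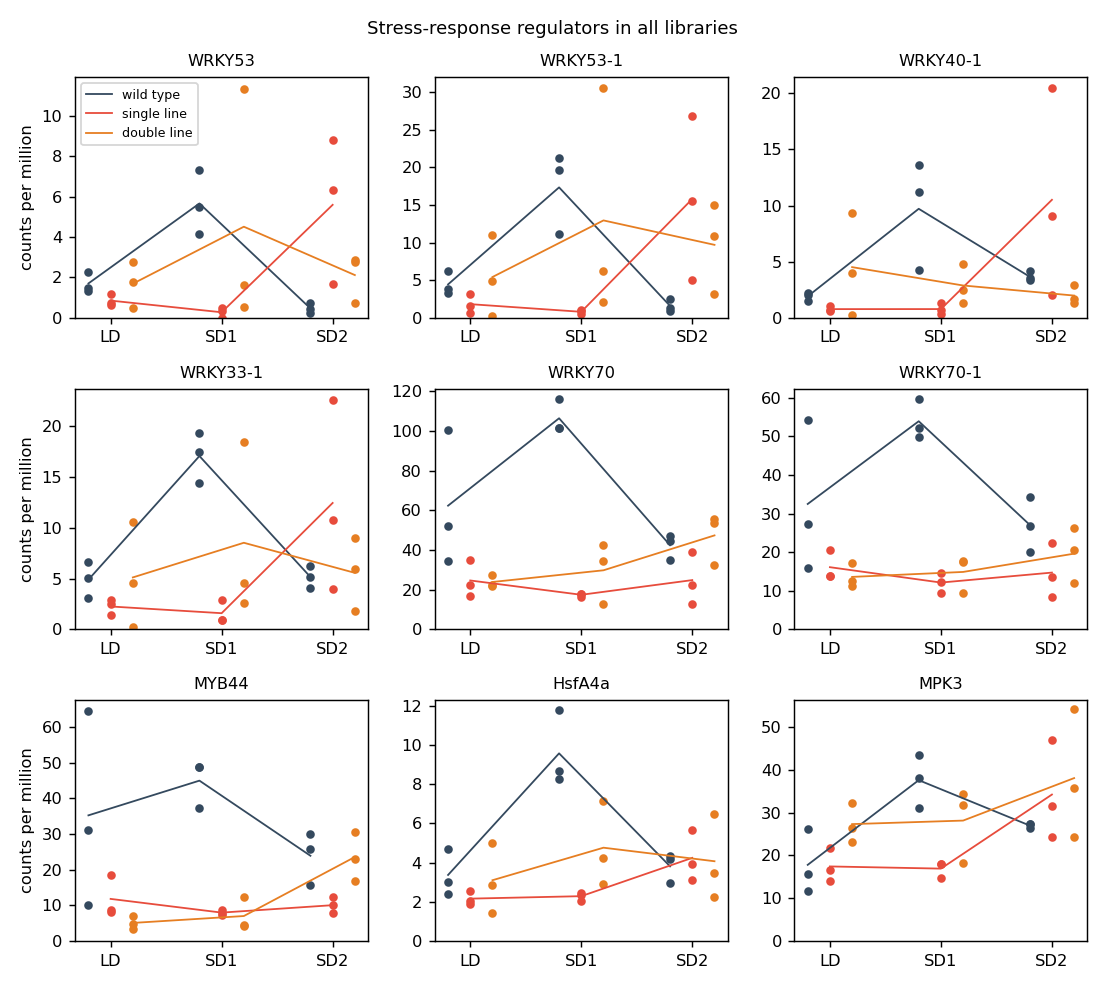
CPM of 9 stress-response regulators in all 27 libraries, by stage (LD, SD1, SD2) and genotype, each point 1 library and lines joining means of 3. In wild type (dark) all 9 means are highest at SD1, and the single line (red) is lowest of the genotypes at SD1 for the WRKY53 genes, WRKY40-1, WRKY33-1, WRKY70, WRKY70-1, HsfA4a and MPK3.

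Whether the SD1 difference was other than at the neighbouring stages was tested as an interaction in the same fit. Against LD, 2 genes passed (0.00278%), 1 in each direction (0.00139%), and 4708 (6.54%) had an unadjusted p under 0.05. Against SD2, 3 passed (0.00416%), 1 of them downward from SD1 to SD2 (0.00139%) and 2 upward (0.00278%), and 5854 (8.13%) had an unadjusted p under 0.05. Among the 19 named genes 0 passed with edgeR in either test, with 9 and 11 at an unadjusted p under 0.05. These 19 were chosen as called at SD1, and the SD1 libraries enter both tests, so low p-values are favoured by the choice. DESeq2 called 1 against LD, FAD72 (adjusted p = 0.0289), and 6 against SD2, namely WRKY53 (1.86e-06), WRKY53-1 (1.5e-05), WRKY40-1 (0.00207), WRKY33-1 (0.0116), the peroxidase (0.0290) and HsfA4a (0.0338). With edgeR the smallest adjusted p among them was 0.0825, for WRKY53 against SD2, with a difference of 7.96 ± 1.41 on the log2 scale. On FPKM plus 0.1, limma also called WRKY53 against SD2 (7.29, adjusted p = 0.0308). Of the 14 named genes called outside the stretches, edgeR called 0 in LD (5 at an unadjusted p under 0.05, 2 by DESeq2, 1 by limma on FPKM) and 1 at SD2, Raf29.1. A call at 1 stage and not at another does not show that the stages differ.

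The double line at SD1 shares the wild-type libraries of this comparison, so its values are set beside those of the single line without any overlap of lists. It had 407 genes called against wild type (0.565%), 254 higher (0.353%) and 153 lower (0.212%), and 5.95% had an unadjusted p under 0.05. The lines were tested against each other directly, which called 1550 genes (2.15%), 329 higher (0.457%) and 1221 lower (1.69%) in the single line, with 8.07% at an unadjusted p under 0.05. The SD1 calls followed here were chosen on the same single-line libraries, so a difference between the lines is favoured by the choice. They were also chosen on the wild-type libraries that serve both lines, so a double-line shift in the same direction is favoured too. Of the 957 SD1 calls in the stretches, 864 differed between the lines, and the double-line median of those lower in the single line was 0.00. Of the 1251 outside, 378 differed between the lines, and the double-line medians were -0.76 for those lower and 1.36 for those higher in the single line, beside single-line medians of -2.93 and 2.10. Of the 13 named genes lower outside the stretches, WRKY70, WRKY70-1 and MYB44 were called against the same wild-type libraries in the double line. For MYB44 the double-line mean was 6.98 CPM and the single-line mean 7.94 CPM, a difference of 0.19 ± 0.49 on the log2 scale. Between the lines, WRKY53 and WRKY53-1 differed (log2 -4.04 and -4.02, adjusted p = 0.0325 and 0.0377) and the other 11 did not pass, which does not show that they were alike.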

How the data were processed

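RNA was sequenced from leaves in 27 libraries, 9 groups of 3, grouped by the genotype and stage that the labels give. Per the labels' protocols, RNA was extracted with TRIzol and TruSeq v2 libraries were run on a HiSeq. The submitters' processing notes name Trim Galore and HISAT2. For neither is a version given in the sources used here, nor are the build and the counter. The authors' deposited values are raw counts per gene. The FPKM table, also deposited by the authors with no stated method, served only as a check, on log2 of FPKM plus 0.1 or 1 with limma 3.58.1.

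Of 119533 entries, the 1 without a gene name (at most 2.61e-05% of a library) was dropped, and 29131 others held no count anywhere. Names, biotypes and gene order came from a RefSeq table of the Da-Ae assembly, which matched 85927 identifiers. Total counts ran from 49700646 to 58862542 per library, and replicates differed far beyond counting noise (chi-square per gene 21.2 to 57.6 within the 2 groups), so depth limits only low counts.

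A robust quasi-likelihood model in edgeR 4.0.16 (R 4.3.3, TMM scaling, filterByExpr by group) took all 27 libraries and left 18 residual degrees of freedom, with a biological coefficient of variation of 0.399. Where no other tool is named, adjusted p-values are from edgeR, with the Benjamini-Hochberg method applied to the 72039 genes tested, and ± after a log2 fold change is its standard error. DESeq2 1.42.0, other scalings and filters, the replicate number as a block, the 6 libraries alone, fits without the double line at SD2 and leaving out each library were tried. Medians of log2 fold change over 41 placed genes in LD gave the stretches, kept where beyond 0.6 over at least 21 genes. The script was tested on simulated counts.

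Named genes follow a rule, the 12 higher and 12 lower of largest fold change among called named genes with separate libraries and a mean of 5 CPM or more in one of the groups, with up to 3 members per list and 2 unnamed genes in each direction. All 19 called named genes are given, CKX6-2 among them after its values were seen. The comparison, the stretches and the lists were chosen with earlier results of these data known, and lists were corrected, and 5 added (cytokinin, carotenoid, plastid protein import, cold and dehydration, sugar metabolism), after names and fold changes had been seen. The lists for chlorophyll synthesis, light harvesting, oxidative stress, autophagy, cell cycle and root held 0 tested named genes. FAH results are not reported here.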

Additional observations from a re-analysis of the deposited data

Results flagged for a closer look

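The difference between single line and wild type changed from stage to stage in 4 unnamed genes by the edgeR interaction test, and DESeq2 called the same changes. LOC106415655, in the C8 stretch, had 0 counts in the 3 single-line libraries at SD1, and 0.245, 0.167 and 0.289 CPM in LD and 0.318, 0.459 and 0.280 CPM at SD2. In wild type it had 6.36, 5.77 and 13.1 CPM at SD1, and the edgeR adjusted p was 0.00559 against LD and 0.00715 against SD2. LOC106407023, on C6, had 3.90, 7.74 and 3.69 CPM in wild type at SD1 and 0.637, 0.511 and 0.442 CPM in the single line (log2 -3.26 ± 0.54, adjusted p = 0.000287). At SD2 it stood at 0.958 CPM in wild type and 3.01 CPM in the single line, and the change of the difference had an adjusted p of 0.0309.

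The other genes were low. LOC111210049, a long non-coding RNA on C9, had 0 counts in the single line in LD and 0.212 to 0.565 CPM at SD1, beside 0.560 and 0.219 CPM in wild type (adjusted p = 0.00559). LOC106387686, on A2, had 0 counts in the single line at SD2 and 0.365 to 1.29 CPM at SD1 (adjusted p = 0.0461). On FPKM plus 0.1, limma kept the calls of LOC106407023 (adjusted p = 0.0308) and LOC111210049 (0.0455). It did not call LOC106415655, whose change was -0.83 against LD and 0.40 from SD1 to SD2 (adjusted p = 0.668 and 0.816) instead of -6.86 and 6.74 with edgeR, nor LOC106387686, at -2.07 (0.36) instead of -8.81.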

How the results depend on the processing

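None of the called genes followed singly reversed its SD1 direction under an alternative setting. Interaction values were not part of this check, and some changed sign. That of TOC33 against LD, for example, was -0.08 with edgeR and 0.12 on FPKM plus 0.1. The count of 2208 genes called at SD1 lay between 1639 and 1950 without any single library of the comparison, and was 3165 with DESeq2, 2376 in the 6 libraries alone and 2411 and 2318 on FPKM. DESeq2 called 1026 genes higher at SD1 and 2120 outside the stretches, where leaving out 1 library gave 797 to 1072 (797 without single-line replicate 2, 825 without replicate 3). The DESeq2 counts were 3484 in LD, 2822 at SD2 and 885 for the double line at SD1, which had 632 on FPKM plus 1 and 266 to 402 without 1 library (266 without wild-type replicate 2). The test of SD1 against LD called 196 genes with DESeq2, 1 and 0 on FPKM plus 0.1 and plus 1, and 2 to 12 without 1 library (12 without wild-type LD replicate 1, 8 without single-line LD replicate 3, 4 without single-line SD1 replicate 3). That of SD2 against SD1 called 422 with DESeq2, 6 on both FPKM scales, 5 without the double line at SD2, an alternative chosen after seeing the data, and 0 to 11 without 1 library (0 without single-line SD1 replicate 2, 11 without single-line SD2 replicate 3, and 1 without wild-type SD1 replicate 2 or SD2 replicates 1 or 3). The cause was not tested.

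Windows of 21 and 81 genes put 1624 and 1697 genes in the stretches. Of the 19 named genes, 8 kept their calls under all 16 alternatives. Same-numbered libraries did not deviate together (correlations of 0.185, -0.221 and 0.00726), so the numbers were not taken as pairs. With a replicate block 2054 genes were called in all libraries and 1890 in the 6 alone. The median of all genes lay between -0.02 and 0.01 on the log2 scale under every setting.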
